A study of Homo sapiens with 6 samples.

Results

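The calpains are a family of proteases that cut their substrates at a limited number of sites, and most of the well-studied members need calcium to do so. The classical enzymes calpain-1 and calpain-2 each consist of a large catalytic subunit, encoded by Capn1 or Capn2, and a shared small regulatory subunit, encoded by Capns1, and both are held in check by calpastatin, the product of Cast. They cleave proteins of the cytoskeleton and of cell adhesions, such as spectrin, talin and filamin, and are known for their part in adhesion turnover and cell migration. The family also holds atypical members without the calcium-binding penta-EF-hand domain, among them Capn6, whose product lacks the active-site cysteine and is known to bind microtubules.

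Of 38986 gene symbols in the count files, 10 were taken here, namely Capn1, Capn2, Capn3, Capn5, Capn6, Capn7, Capn10, Capn15, Capns1 and Cast. The set was chosen by the measured counts of Capn6, which was nearly absent in one group, and the other members were added by family. The values of Capn6 between the groups are therefore given as a description with no test. The files held a further 6 calpain genes from a list of 7, which are described after the members.

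RNA was sequenced from 6 libraries, 3 labelled as STAT6-overexpressing 293T cells and 3 labelled Mock with the genotype WT, all described as mCherry-positive. 293T cells are a human line derived from embryonic kidney that carries the SV40 large T antigen, and STAT6 is a signal transducer and transcription factor of the interleukin 4 and interleukin 13 pathways. The study asked about the role of STAT6 in mitochondrial gene expression. Whether the libraries of a group came from separate cultures is not in the labels, so the spread behind each p-value may be only technical. They are called STAT6-labelled and Mock-labelled libraries below.

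The files and the labels do not match in organism or in the overexpressed gene. Only 17 symbols equal a human symbol in the same case and 16671 do so only in capitals, all 10 members among them, so the symbols have mouse form. Stat6 stood at 33.6 ± 1.53 CPM (counts scaled to a common library total with TMM factors; SD, n = 3) in STAT6-labelled libraries and at 94.5 ± 1.49 CPM in Mock-labelled libraries. All 7 pigment cell markers exceeded 1 CPM in every library, with a summed level of 16700 to 16800 CPM in STAT6-labelled libraries and 14400 to 14700 CPM in Mock-labelled libraries. The marker Tyr, or tyrosinase, went against the sum, at 29.1 ± 0.758 CPM in STAT6-labelled libraries and 303 ± 5.29 CPM in Mock-labelled libraries (SD, n = 3 each). Pmel and Mlana overlapped between groups, and the mean of Pmel was also lower, at 2218 CPM in STAT6-labelled libraries and 2308 CPM in Mock-labelled libraries. Of 6 embryonic kidney markers, 5 were under 1 CPM in every library and Pax8 and Six2 had 0 counts. The sixth, Lhx1, had 79, 59 and 60 counts in STAT6 replicates 1 to 3, against 0 in each Mock-labelled library, and the 6 genes summed to 3.14 to 3.54 CPM in STAT6-labelled libraries and 0 CPM in Mock-labelled libraries. Library totals ranged from 19894773 to 29802693 counts. Directions below are those of the labels: "higher" stands for higher in the STAT6-labelled libraries, in which Stat6 was lower.

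Capn6 was present in Mock-labelled libraries and all but missing from STAT6-labelled libraries. It had 0, 0 and 1 counts in STAT6 replicates 1, 2 and 3, against 1198, 1107 and 1488 counts in Mock replicates 1, 2 and 3. The groups did not overlap, and the Mock libraries lay close together at 49.5 ± 2.25 CPM (SD, n = 3). At these depths a count of 0 allows a level of up to 0.13 CPM in STAT6 replicate 1 and 0.155 CPM in STAT6 replicate 2, taking 3 counts as the limit. The level in STAT6-labelled libraries was 0.000322 times that in Mock-labelled libraries (exact conditional 95% interval 8.14e-06 to 0.00179, counting error only). In bulk RNA, fewer cells with Capn6 and less Capn6 RNA per cell cannot be told apart. Capn6 passed the filter on low counts only through its counts in Mock-labelled libraries. By counts, 2 genes in the files, Capn6 and Arhgap32, had at most 3 over STAT6-labelled libraries and at least 1000 over Mock-labelled libraries, and 1 gene, Ccl2, met the converse. Capn6 was picked for such counts, so that it meets these limits is no finding. Other genes lay just outside them, such as Iqgap2 with 7 counts over STAT6-labelled libraries and 3466 over Mock-labelled libraries. Foxr2 had 12 counts over STAT6-labelled libraries and 3709 over Mock-labelled libraries.

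**Figure D1:**
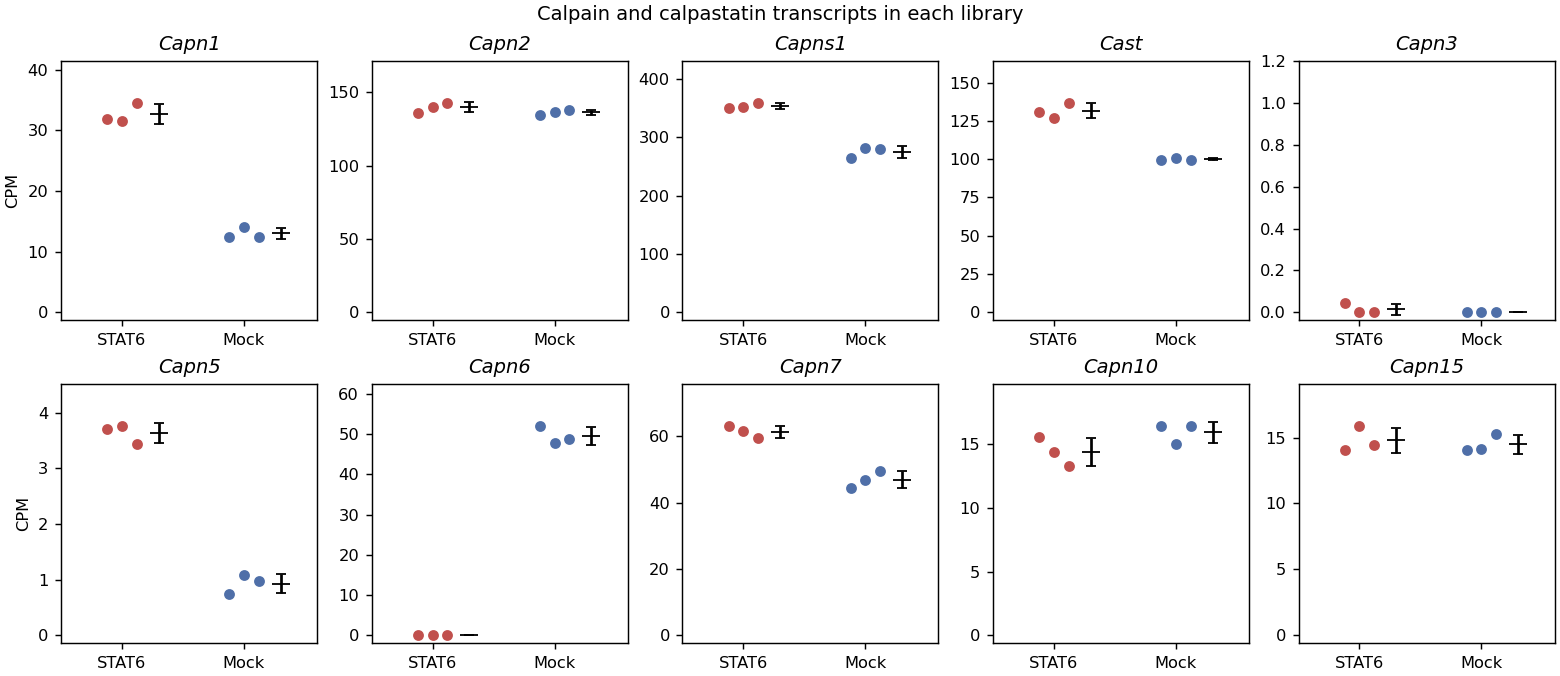
Each panel shows 1 gene, with its CPM (y axis, from 0, own scale) in the 3 STAT6-labelled libraries (red) and the 3 Mock-labelled libraries (blue); black marks give the mean and SD. Capn6 lies at 0 to 0.049 CPM in STAT6-labelled libraries and 47.7 to 52.0 CPM in Mock-labelled libraries, while Capn1 and Capn5 are higher in STAT6-labelled libraries.

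Capn1 rose, whereas its close relative Capn2 did not pass the test. Capn1, the large subunit of calpain-1, stood at 31.9, 31.5 and 34.5 CPM in STAT6 replicates 1 to 3, against 12.5, 14.1 and 12.5 CPM in Mock replicates 1 to 3. Every STAT6-labelled library was above every Mock-labelled library, a 2.52-fold difference (log2 fold change 1.33, SE 0.07, adjusted p = 3.45e-19). Capn2, the large subunit of calpain-2, stood at 136, 140 and 143 CPM in STAT6 replicates 1 to 3, against 135, 137 and 138 CPM in Mock replicates 1 to 3. The groups overlapped, and the log2 fold change was 0.03 (SE 0.03, adjusted p = 0.376), a ratio of 1.02 with a counting interval of 0.994 to 1.05.

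The shared small subunit and the inhibitor were both moderately higher. Capns1 stood at 350, 352 and 359 CPM in STAT6 replicates 1 to 3, against 264, 281 and 279 CPM in Mock replicates 1 to 3. Its groups did not overlap, and it rose 1.28-fold (log2 fold change 0.36, SE 0.03, adjusted p = 1.29e-12). Cast stood at 131, 127 and 137 CPM in STAT6 replicates 1 to 3, against 99.7, 101 and 99.6 CPM in Mock replicates 1 to 3. It rose 1.32-fold without overlap (log2 fold change 0.40, SE 0.04, adjusted p = 7.61e-12), and the SD of its Mock-labelled libraries was 0.661 CPM.

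The balance of these 4 transcripts was compared within each library, where scaling has no effect. There were 4.27, 4.46 and 4.14 counts of Capn2 per count of Capn1 in STAT6 replicates 1 to 3, against 10.8, 9.72 and 11.0 in Mock replicates 1 to 3. The mean ratio was thus 4.29 ± 0.16 in STAT6-labelled libraries and 10.5 ± 0.706 in Mock-labelled libraries (SD, n = 3 each). Cast had 0.763 ± 0.0219 counts per count of Capn1 and Capn2 together in STAT6-labelled libraries and 0.67 ± 0.00801 in Mock-labelled libraries. For Capns1 the corresponding ratio was 2.05 ± 0.031 in STAT6-labelled libraries and 1.84 ± 0.04 in Mock-labelled libraries. None of the 3 ratios overlapped between groups, and each had p = 0.1 (exact permutation test, 2-sided), the smallest that 20 assignments allow. Transcript lengths of the mouse genes were not used, so a ratio compares libraries and not the abundance of one gene with another.

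**Figure D2:**
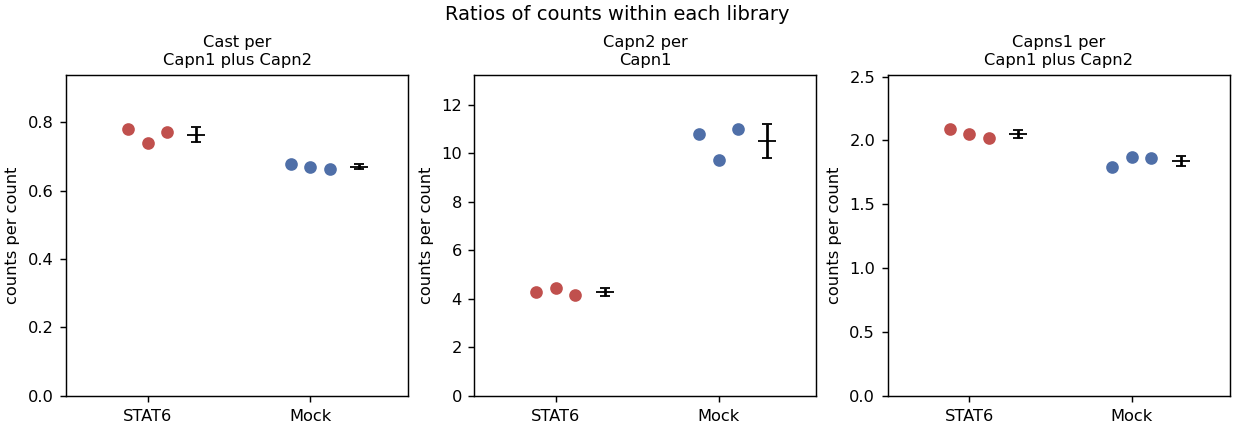
Count ratios within each library (y axis, counts per count, from 0) for the 3 STAT6-labelled libraries (red) and the 3 Mock-labelled libraries (blue), with the mean and SD in black. Capn2 per Capn1 is 4.14 to 4.46 in STAT6-labelled libraries and 9.72 to 11.0 in Mock-labelled libraries, and the other ratios differ by 1.14 and 1.12 times.

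Among the remaining members, Capn5 had the largest rise and Capn7 a smaller one. Capn5, an atypical calpain in which human mutations cause an inflammatory eye disease, had 86, 73 and 70 counts in STAT6 replicates 1 to 3, against 17, 25 and 30 counts in Mock replicates 1 to 3. It was therefore a low-level transcript, at 3.64 ± 0.179 CPM in STAT6-labelled libraries and 0.932 ± 0.175 CPM in Mock-labelled libraries (SD, n = 3 each). The groups did not overlap (log2 fold change 1.95, SE 0.21, adjusted p = 2.47e-10). Capn7, an atypical calpain that binds components of the ESCRT-III membrane-cutting machinery, stood at 63.1, 61.5 and 59.4 CPM in STAT6 replicates 1 to 3, against 44.5, 46.8 and 49.5 CPM in Mock replicates 1 to 3. It rose 1.30-fold without overlap (log2 fold change 0.38, SE 0.05, adjusted p = 4.32e-09).

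Capn10 and Capn15 overlapped between groups. Capn10, whose human gene has been linked to type-2 diabetes, stood at 15.5, 14.4 and 13.3 CPM in STAT6 replicates 1 to 3, against 16.4, 15.0 and 16.4 CPM in Mock replicates 1 to 3. Its log2 fold change of -0.15 did not pass (SE 0.08, adjusted p = 0.0848). It passed as lower with library totals alone (-0.22, adjusted p = 0.0108), without STAT6 replicate 1 (-0.21, adjusted p = 0.0299) and without Mock replicate 2 (-0.19, adjusted p = 0.0312). Capn15, the mammalian relative of the fly gene small optic lobes, stood at 14.1, 15.9 and 14.4 CPM in STAT6 replicates 1 to 3, against 14.1, 14.1 and 15.3 CPM in Mock replicates 1 to 3. It differed by a ratio of 1.01 with a counting interval of 0.927 to 1.11 (log2 fold change 0.02, SE 0.08, adjusted p = 0.794).

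Capn3, the calpain of skeletal muscle, had 1 count over STAT6-labelled libraries and 0 over Mock-labelled libraries, and it did not pass the filter on low counts. No fold is given, since both groups were under the limit of 3 counts. Of 8 skeletal muscle markers, 6 were under 1 CPM in every library, with Myod1 and Myog at 0 counts. The summed muscle markers were 52.3 to 55.8 CPM in STAT6-labelled libraries and 10.0 to 11.6 CPM in Mock-labelled libraries, nearly all of it from Ttn and Des.

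Of the 10 members, 9 passed the filter on low counts. Of the 8 tested members other than Capn6, 5 were higher, 0 were lower and 3 did not pass; the median log2 fold change was 0.37, beside -0.00 over all genes tested. No member was lower at an unadjusted p under 0.05 either, and DESeq2 and limma-voom gave the same counts of 5 and 0. Over all 12938 genes tested, 72.6% were called, 35.8% as higher and 36.8% as lower. A change of at least 2-fold was called in 2 of the 8 members, both higher, where 15.5% of all genes had one, 10.6% higher and 4.96% lower. The groups did not overlap in the 5 called members, as they did not in 74.6% of all genes. Because the family was chosen on this comparison, nothing is read from these shares.

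**Figure D3:**
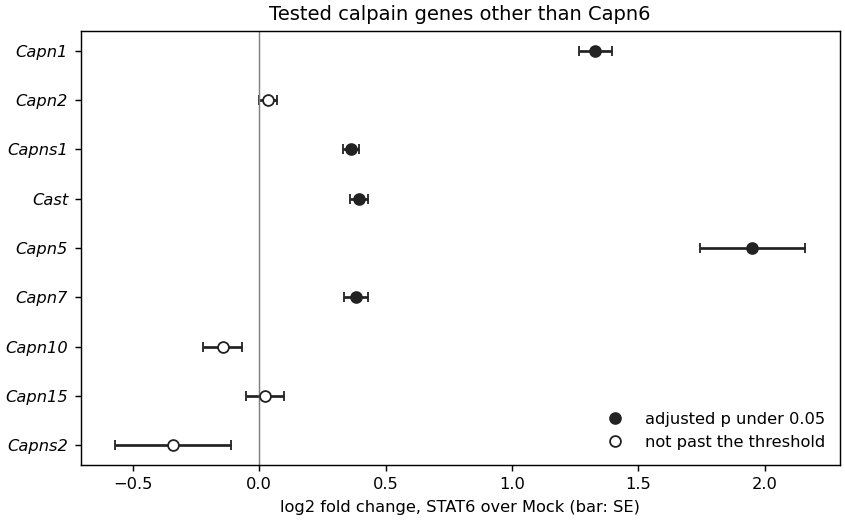
Log2 fold change of STAT6-labelled over Mock-labelled libraries (x axis) with its SE, for the 8 tested members other than Capn6 and for Capns2; filled points passed an adjusted p of 0.05 and open points did not. Capn5 (1.95) and Capn1 (1.33) lie apart from Cast, Capn7 and Capns1, which lie between 0.36 and 0.40.

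The 10 genes, among them the small subunit gene Capns1 and the inhibitor gene Cast, together held more of STAT6-labelled libraries. Their summed level was 752 ± 10.1 CPM in STAT6-labelled libraries and 652 ± 12 CPM in Mock-labelled libraries (SD, n = 3 each). Without Capn6 the sums were 751.9 ± 10 CPM in STAT6-labelled libraries and 602.6 ± 14.1 CPM in Mock-labelled libraries. Capns1 took 47% ± 0.108 of the counts of all 10 genes in STAT6-labelled libraries and 42.1% ± 0.747 in Mock-labelled libraries. Cast took 17.5% ± 0.458 in STAT6-labelled libraries and 15.3% ± 0.269 in Mock-labelled libraries. The 8 other members together thus held a lower share in STAT6-labelled libraries, and the sum is not a level of the proteases. Capn6 made up 0.0061% ± 0.0106 of the counts of the 8 members other than Capns1 and Cast in STAT6-labelled libraries and 17.8% ± 0.925 in Mock-labelled libraries. Capn1 took 4.34% ± 0.16 of the counts of all 10 genes in STAT6-labelled libraries and 1.99% ± 0.128 in Mock-labelled libraries. The share of Capn2 was lower, at 18.6% ± 0.294 in STAT6-labelled libraries and 20.9% ± 0.158 in Mock-labelled libraries. The CPM of Capn2 itself overlapped between groups. The spread between replicates was near counting error in some groups, above it in some and below it in others. For Capns1 the coefficient of variation was 1.27% in STAT6-labelled libraries, where counting alone gives 1.16%, and 3.50% in Mock-labelled libraries, where it gives 1.19%. For Cast it was 3.76% in STAT6-labelled libraries, where counting alone gives 1.90%, and 0.661% in Mock-labelled libraries, where it gives 1.98%.

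**Figure D4:**
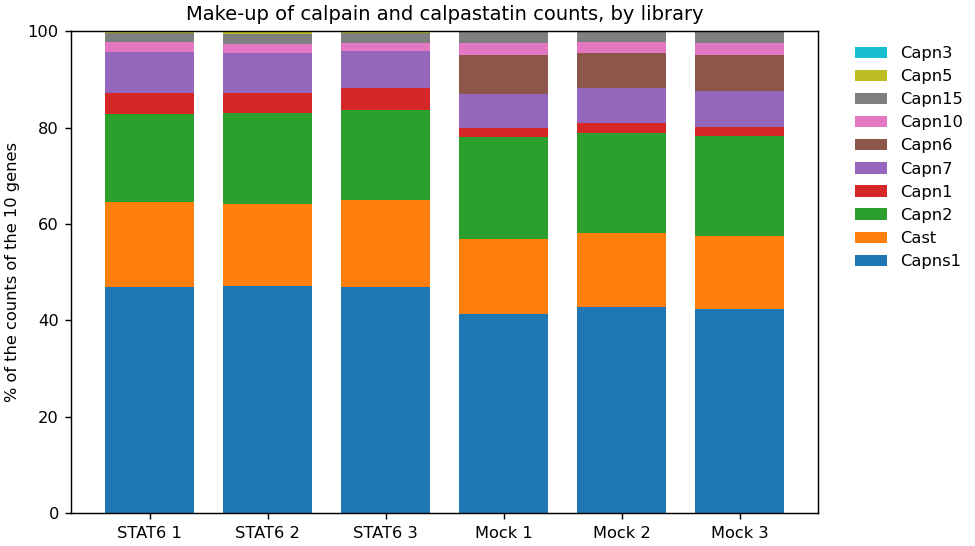
Stacked bars show the share of each gene (% of the counts of the 10 genes, y axis from 0) in each library, with the 3 STAT6-labelled libraries on the left and the 3 Mock-labelled libraries on the right. The Capn6 segment, 7.59% on average in Mock-labelled libraries, is not visible in STAT6-labelled libraries, and the Capn1 segment is wider there.

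The other calpain genes were low or undetected. Capns2, a second small subunit gene, had 36, 25 and 35 counts in STAT6 replicates 1 to 3, against 45, 56 and 46 counts in Mock replicates 1 to 3, and did not pass the test (log2 fold change -0.34, SE 0.23, adjusted p = 0.178). Capn12 had 19 counts over STAT6-labelled libraries and 21 over Mock-labelled libraries. Capn9 had 3 counts against 5, Capn11 had 2 against 4, Capn13 had 1 against 0, and Capn8 had 0 against 1. Adgb, a gene with a calpain-like domain that was chosen after its values were seen, stood at 37.2 ± 2.03 CPM in STAT6-labelled libraries and 35.1 ± 1.12 CPM in Mock-labelled libraries (adjusted p = 0.156).

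By the Euclidean distance of centred log2(CPM + 0.5) values over the 6 libraries, the genes most like Capn6 were Enah (distance 0.52), Foxr2 (0.57), Iqgap2 (0.58), Slc44a3 (1.14) and Abca12 (1.36), among 12937 genes ranked. Since the match rests on the difference between the same groups that chose Capn6, their values are a description. Enah, an actin regulator, had 36 counts over STAT6-labelled libraries and 10395 over Mock-labelled libraries. Foxr2, a forkhead transcription factor, had 12 counts over STAT6-labelled libraries and 3709 over Mock-labelled libraries. Iqgap2, a scaffold protein gene, had 7 counts in STAT6-labelled libraries against 3466 in Mock-labelled libraries. Slc44a3, a choline transporter-like gene, had 27 against 3626, and Abca12, a lipid transporter gene, had 467 against 27283.

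The genes next to Capn6 were looked up in the human gene order of GRCh38.p14, by symbol, and the mouse order was not used here. Its direct neighbours there, Pak3 and Dcx, were barely detected. Pak3, a kinase gene, had 2, 7 and 2 counts in STAT6 replicates 1 to 3, against 19, 20 and 13 counts in Mock replicates 1 to 3, and was not tested. These groups did not overlap, a ratio of 0.258 with a counting interval of 0.121 to 0.501. Dcx, a microtubule-binding protein gene of neurons, had 1 count over STAT6-labelled libraries and 0 over Mock-labelled libraries, while Chrdl1 and Sertm2 had 0 counts in every library. Alg13, a glycosylation gene on the side of Dcx, was at 10.6 ± 0.469 CPM in STAT6-labelled libraries and 15.9 ± 1.43 CPM in Mock-labelled libraries (log2 fold change -0.58, SE 0.08, adjusted p = 1.24e-07). Rtl9, on the side of Pak3, was at 2.23 ± 0.161 CPM in STAT6-labelled libraries and 1.19 ± 0.125 CPM in Mock-labelled libraries (log2 fold change 0.91, SE 0.22, adjusted p = 0.000381).

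Genes that share the penta-EF-hand domain with the classical calpains divided in direction. Of 4 genes, Gca passed the filter on low counts only through Mock-labelled libraries and is described without a test. Of the other 3, 1 was higher and 2 were lower, where 35.8% of all genes tested were higher and 36.8% lower. Gca, which encodes grancalcin, had 1, 0 and 1 counts in STAT6 replicates 1 to 3, against 102, 113 and 145 counts in Mock replicates 1 to 3. Its groups were far apart, a ratio of 0.00678 with a counting interval of 0.000818 to 0.0247. Pef1, or peflin, rose (log2 fold change 0.23, SE 0.06, adjusted p = 0.00227). Its binding partner Pdcd6, also called ALG-2, was lower (-0.15, SE 0.05, adjusted p = 0.00517), as was Sri, or sorcin (-0.11, SE 0.04, adjusted p = 0.0122). The call of Sri was lost without STAT6 replicate 1 (adjusted p = 0.0959) and without Mock replicate 3 (adjusted p = 0.0583).

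Of the genes tied to Capn6 or Capn7 by their protein partners, the guanine nucleotide exchange factor gene Arhgef2 changed most among those of Capn6. Arhgef2, which encodes GEF-H1, a microtubule-bound protein that Capn6 has been reported to bind, stood at 65.8, 70.1 and 69.6 CPM in STAT6 replicates 1 to 3, against 127, 127 and 125 CPM in Mock replicates 1 to 3. It fell without overlap (log2 fold change -0.89, SE 0.04, adjusted p = 4.23e-21). The GTPase gene Rhoa rose (0.34, SE 0.03, adjusted p = 2.72e-12), and Rac1 was higher by 0.07 (adjusted p = 0.0257), a direction that turned with library totals alone (-0.00, adjusted p = 0.922). The call of Rac1 was also lost with upper-quartile scaling (adjusted p = 0.0854), when low counts were not filtered (adjusted p = 0.183) and without STAT6 replicate 1, 2 or 3 or Mock replicate 2 or 3 (adjusted p from 0.0529 to 0.118), which left 1 of the 3 genes higher and 1 lower.

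All 5 genes listed for Capn7 and the ESCRT-III pathway, whether or not they bind Capn7, were called higher. Their median was 0.21 (log2 fold change), but with library totals alone 3 were called higher. Of all genes tested, 35.8% were called higher and the median was -0.00. Chmp1b, an ESCRT-III subunit, stood at 72.6, 75.6 and 71.4 CPM in STAT6 replicates 1 to 3, against 33.7, 31.9 and 34.9 CPM in Mock replicates 1 to 3. It rose 2.18-fold without overlap (log2 fold change 1.13, SE 0.05, adjusted p = 1.36e-21). The ATPase genes Vps4b (0.40, adjusted p = 1.16e-11) and Vps4a (0.21, adjusted p = 6.67e-05) rose less. Chmp1a (0.17, adjusted p = 0.00215) and Ist1 (0.09, adjusted p = 0.0388) were the pair whose calls were lost with library totals alone, at adjusted p = 0.0807 and 0.732. Ist1 also lost its call with DESeq2 (adjusted p = 0.18), with upper-quartile scaling (adjusted p = 0.0911), when low counts were not filtered (adjusted p = 0.17) and without any 1 of the 6 libraries (adjusted p from 0.0539 to 0.178).

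Of 17 tested calpain substrates of the cytoskeleton and of adhesions, 12 were higher, 3 were lower and 2 did not pass, and the list's median was 0.49 (log2 fold change). Over all genes tested, 35.8% were higher and 36.8% lower; the list itself was given no test. Itgb3, an integrin beta chain, stood at 126, 123 and 128 CPM in STAT6 replicates 1 to 3, against 16.7, 17.0 and 16.8 CPM in Mock replicates 1 to 3. It rose 7.47-fold (log2 fold change 2.90, SE 0.05, adjusted p = 3.86e-34), with no library near the other group. The integrin gene Itgb1 rose as well (1.33, adjusted p = 4.29e-31), as did Ezr, a linker of membrane and actin (0.89, adjusted p = 1.62e-21), and Cttn, or cortactin (0.63, adjusted p = 2.79e-19). The lower genes were Tln1, or talin (-0.12, adjusted p = 0.00163), Ctnnb1, or beta-catenin (-0.11, adjusted p = 0.000538), and Cdh2, or N-cadherin (-0.17, adjusted p = 2.17e-05). These counts are of transcripts, and cleavage of the proteins was not measured.

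Substrates with roles in signalling and cell death, and genes that set the calcium level, moved in both directions. Of 17 tested substrates of this kind, 10 were higher, 4 were lower and 3 did not pass; the median was 0.14 (log2 fold change), and with library totals alone 6 were higher and 6 lower. This list and the next stand beside 72.6% of all genes called, 35.8% higher and 36.8% lower. Jun, an AP-1 transcription factor, was higher (1.36, adjusted p = 3.42e-23), as were Nfkbia, the inhibitor of NF-kB (1.21, adjusted p = 1.22e-16), and Bid, a death agonist of the BCL2 family (0.72, adjusted p = 1.39e-15). Among 16 tested genes of calcium entry, stores and export, 8 were higher, 6 were lower and 2 did not pass, with a median of 0.06. Itpr2, a calcium release channel of the endoplasmic reticulum, stood at 61.2, 64.3 and 66.0 CPM in STAT6 replicates 1 to 3, against 22.6, 24.6 and 22.7 CPM in Mock replicates 1 to 3. It rose 2.74-fold without overlap (log2 fold change 1.45, SE 0.05, adjusted p = 1.04e-23). The store-operated channel genes Orai1 (1.44, adjusted p = 5.88e-17) and Orai2 (0.98, adjusted p = 5.03e-14) rose, and the plasma membrane calcium pump gene Atp2b1, which stands on both lists, fell (-0.97, adjusted p = 6.63e-23). From the same list, Stim1 was higher (0.33, adjusted p = 1.81e-07) and Stim2 lower (-0.63, adjusted p = 1.46e-13).

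**Figure D5:**
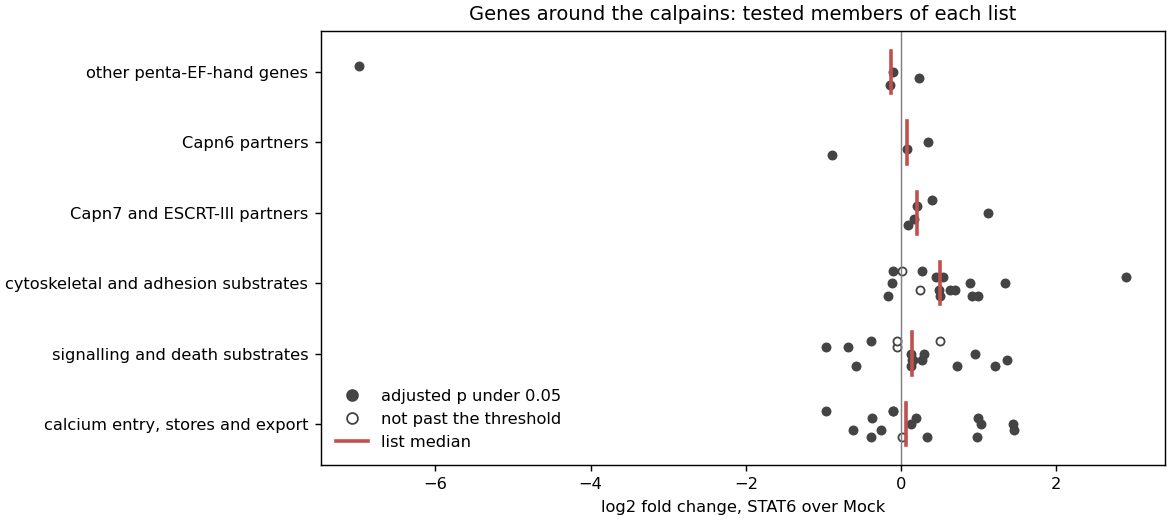
Log2 fold change of STAT6-labelled over Mock-labelled libraries (x axis) for each tested gene of the lists around the calpains, one list per row, filled where the adjusted p was under 0.05; red lines mark the list medians, which run from -0.13 to 0.49. Gca, with 2 counts over STAT6-labelled libraries, lies far to the left at its fitted value of -6.98, and Itgb3 lies farthest to the right at 2.90. Gca is drawn filled and enters the median of its list, -0.13, but no test is read from it.

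Markers of other cell types were low beside the pigment cell markers. The summed fibroblast markers were 78.6 to 84.9 CPM in STAT6-labelled libraries and 18.8 to 20.7 CPM in Mock-labelled libraries. Of these 7 genes, 4 were under 1 CPM in every library, and Col1a1 was higher and Col1a2 lower in STAT6-labelled libraries. Macrophage markers summed to 3.63 to 4.12 CPM in STAT6-labelled libraries and 1.12 to 1.39 CPM in Mock-labelled libraries, with Adgre1 at 0 counts. Epithelial markers summed to 2.11 to 2.55 CPM in STAT6-labelled libraries and 0.517 to 0.738 CPM in Mock-labelled libraries, with Epcam at 0 counts, and all 4 endothelial markers were under 1 CPM, with Cdh5 at 0 counts. The part of other cell types in the differences above was not tested.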

How the data were processed

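Per the labels' protocols, a stranded mRNA kit was used. STAR, Salmon, FastQC and edgeR and the build GRCh37 are named in the submitters' processing notes with no version; the strand setting and the way of counting were not given in the sources used here. The deposited files give 1 whole-number count per gene symbol, not normalized by the authors, and were used as deposited.

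The filter on low counts was edgeR's filterByExpr by group, leaving 12938 genes with 99.9% of counts. TMM factors lay between 0.968 and 1.03. STAT6 over Mock was tested with edgeR 4.0.16 in R 4.3.3 (glmQLFit with robust = TRUE, glmQLFTest, group as the only term), with Benjamini-Hochberg adjustment over all genes tested and a threshold of 0.05. A fold printed without log2 is the ratio of summed counts over TMM-scaled totals, with an exact conditional 95% interval. Intervals and limits for a count of 0 cover counting error only.

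The members and lists were chosen with earlier results of these data known. Named genes are all members, the other calpains in the files, the up to 4 genes of each list with the smallest adjusted p (every gene of lists of up to 5), the 5 genes nearest to Capn6 in pattern and up to 3 neighbours on each side. Tln1, Ctnnb1, Cdh2, Itpr1, Itpr3, Stim1, Stim2, Arhgap32, Ccl2 and the markers singled out were named after their values were seen.

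Alternatives were DESeq2 1.42.0, its size factors in edgeR, library totals alone, upper-quartile scaling, no filter, 1 CPM in 3 libraries, limma-voom (limma 3.58.1), a replicate block, each library left out and an adjusted p of 0.01.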

Additional observations from a re-analysis of the deposited data

How the results depend on the processing

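The count of 5 higher members other than Capn6 was the same under each alternative run. The count of 0 lower members became 1 with library totals alone, and ranged from 0 to 1 when each library was left out, the member being Capn10. Calls over all genes stayed within 1.5 times their number in each alternative. Over 35 named genes and their alternatives, 498 of 525 values stayed on the same side of the threshold, and called genes among them kept direction. Of the rest, 23 lost a call, 3 gained one (Capn10) and 1 called gene turned, Rac1 at -0.0034 with library totals alone (adjusted p = 0.922). Library totals alone moved the median log2 fold change of all genes tested from -0.00334 to -0.0769. Of called genes, 42.5% were then higher, against 49.3% in the main setting. A small downward move under that setting was therefore common to the genes and not particular to those named. Capn2 and Capn15, called in no alternative, also changed sign with library totals alone, to -0.040 and -0.051. Capn15 did so as well without STAT6 replicate 2, Mock replicate 1 or Mock replicate 2. The 35 genes include Gca, which is described without a test. The replicate block left 5 members higher and 0 lower and called 9422 genes, against 9399 without it. Deviations of libraries with the same number correlated at 0.0598, 0.0961 and 0.0181, none over 0.1, so the numbers were not taken as pairs. That 5 of 6 libraries correlated best with their own number is a hint from the data, not from the design. The ratios of member counts moved by less than 1 SD when each library was left out or log2 ratios were used. With 19894773 to 29802693 counts per library, Capn3 and most other calpain genes outside the members were too low to test.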
